A study of Homo sapiens with 3 samples.

Results

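CRL4-Cdt2 is the ubiquitin ligase that destroys the histone methyltransferase Set8, and 9 genes of its machinery were followed here across 3 arrays. They were the 4 shared ligase subunits (CUL4A, CUL4B, DDB1 and RBX1), the substrate receptor Cdt2 (DTL) and the sliding clamp on which it acts (PCNA). Also included were SKP2 and FBXO11, F-box receptors of rival ligases, and TDG, another substrate. Members were all probe sets that the platform annotation assigns to exactly 1 of these symbols. There were 21 such probe sets among 41091 with a single symbol, and 9 genes among 19775. RNA came from U2OS, a human osteosarcoma line, 5 days after retroviral transduction with stable Set8b (Set8_deltaPIP2, a form that resists degradation by the ligase), with wild-type Set8b (Wt-Set8b), or with the empty pMSCV vector. All 3 groups shared the cell line, the retroviral backbone and the harvest day, and whether transduced cells were selected is not stated in the labels. Each construct had 1 array, so no difference has a replicate check. No p-value is given, and precision is limited by how few arrays there are.

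CRL4-Cdt2 is built on a cullin scaffold, CUL4A or CUL4B. The RING protein RBX1 recruits the charged E2 enzyme at one end and the adaptor DDB1 holds the receptor at the other. Cdt2 recognises a substrate only when a short motif in it, the PIP degron, is bound to PCNA loaded on chromatin, which couples destruction to DNA replication and repair. Known substrates are the licensing factor CDT1, the cyclin-dependent kinase inhibitor p21 (CDKN1A), Set8 itself (KMT5A) and the thymine DNA glycosylase TDG. SKP2, the receptor of an SCF ligase, targets p27, p21 and CDT1 and has been linked to Set8 turnover, while FBXO11, the receptor of another SCF ligase, targets Cdt2. The array reads mRNA and says nothing of how much of these proteins was present or how active the ligase was.

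The promoters of 4 of the genes are shown because DTL, PCNA and SKP2 read lower with stable Set8b, while CUL4A holds one of the searched motifs and read near 0 by its brightest probe set. Each is the 250 bases before a RefSeq start site on GRCh38.p14, with capitals marking matches to CCAAT or to an E2F motif, the binding sequence of the cell cycle transcription factors. The E2F motif was searched as TTTCCCGC, TTTCGCGC, TTTGCCGC or TTTGGCGC, and both motifs were searched on both strands. The DTL window lies at chr1:212035498-212035747 (plus strand) and the PCNA window, 1 of 2 for that gene, at chr20:5126623-5126872 (minus strand). The SKP2 window lies at chr5:36151861-36152110 (plus strand) and the CUL4A window, 1 of 4 for that gene, at chr13:113208444-113208693 (plus strand).
DTL: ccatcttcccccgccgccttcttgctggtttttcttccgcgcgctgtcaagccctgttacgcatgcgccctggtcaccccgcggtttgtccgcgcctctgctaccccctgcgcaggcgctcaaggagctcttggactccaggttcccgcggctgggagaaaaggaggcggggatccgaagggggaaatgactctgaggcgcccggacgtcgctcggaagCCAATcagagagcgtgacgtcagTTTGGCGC
PCNA: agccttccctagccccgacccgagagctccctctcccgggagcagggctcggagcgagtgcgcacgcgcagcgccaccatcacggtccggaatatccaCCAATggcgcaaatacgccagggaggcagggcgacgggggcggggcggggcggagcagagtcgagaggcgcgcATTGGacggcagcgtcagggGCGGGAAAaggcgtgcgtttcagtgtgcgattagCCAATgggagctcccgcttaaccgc
SKP2: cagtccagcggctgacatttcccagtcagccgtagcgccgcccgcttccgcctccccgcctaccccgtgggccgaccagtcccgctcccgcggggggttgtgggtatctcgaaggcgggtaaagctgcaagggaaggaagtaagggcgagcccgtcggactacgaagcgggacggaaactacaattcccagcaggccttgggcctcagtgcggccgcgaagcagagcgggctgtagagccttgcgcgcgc
CUL4A: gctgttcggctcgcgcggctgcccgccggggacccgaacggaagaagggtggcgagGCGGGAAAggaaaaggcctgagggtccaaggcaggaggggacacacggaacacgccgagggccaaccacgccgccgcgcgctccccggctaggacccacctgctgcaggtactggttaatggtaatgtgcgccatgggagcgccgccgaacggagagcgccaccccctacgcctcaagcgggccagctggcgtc
The E2F letters were found in 3 of the 17 windows of the 9 genes, against 2.79% of 35116 windows of all genes. They stood 8 bases before the start in DTL, 59 in PCNA and 194 in CUL4A, counted from the first base of the match. The windows shown for PCNA and CUL4A are the ones with these letters, and the other windows of those genes held none. In PCNA the match overlapped the letters GGGCGG of a GC box. CCAAT was found in 7 of the 17 windows, against 32% of all windows, and in DTL it stood 31 bases before the start. The SKP2 window held neither. FBXO11, which also read lower with stable Set8b by its brightest probe set, had 2 windows. Neither held the E2F letters, and 1 held 2 matches to CCAAT. A match describes letters in this window and is not a measured binding site.

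Signals are probe-set intensities after quantile normalization, which gives the 3 arrays the same distribution. They are compared between arrays and not between probe sets. A difference is a log2 ratio of 2 arrays, and 2-fold, a log2 difference of 1, was the size at which genes were counted. The brightest probe set stood for a gene, and probe sets with an average signal under 51.4 were treated as dim. Of the 21 probe sets 20 passed this filter, the exception being 1 for SKP2, and all 9 genes were among the 11783 genes compared. The spread between probe sets of the same gene, pooled over 5357 genes, was an SD of 0.39 for stable Set8b over vector, 0.36 for wild-type Set8b over vector and 0.42 for stable over wild-type Set8b. This spread covers probe noise and not differences between cultures.

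Before scaling, the median intensity ran from 38.6 to 42.8 over the arrays. The ratio of 3′ to 5′ control signal, a sign of RNA integrity, ran from 7.33 to 7.995 for beta-actin and from 1.02 to 1.12 for GAPDH. On every array the beta-actin 3′ signal was thus several times its 5′ signal, and any effect on the probe sets read here was not tested. Of 10 mesenchymal and bone markers 6 passed the filter, VIM, SPARC, COL1A1, RUNX2, FN1 and ALPL, while SP7, IBSP and COL1A2 were dim. BGLAP had no probe set with its symbol alone. For stable Set8b over vector 2 of the 6 were at least 2-fold higher, FN1 at 1.54 and ALPL at 1.28, where 5.23% of all genes were. ALPL read 37.7 for vector, 46.15 for wild-type and 91.8 for stable Set8b. It thus passed the filter only through the array where it was high, and its difference carries little weight. The summed signal of the 6 was 33527 for vector, 30480 for wild-type and 41514 for stable Set8b. The leukocyte marker PTPRC was dim, and of 6 leukocyte markers 1 passed, CD3D, with a signal of 107 for vector, 75.9 for wild-type and 200.2 for stable Set8b. Of 6 epithelial markers 3 passed, with a summed signal of 562 for vector, 684 for wild-type and 378 for stable Set8b. For stable Set8b over vector EPCAM was at -1.35, while KRT14 was at 0.56 and CLDN4 at 0.75, so the lower sum came from EPCAM. Their part in the results was not tested. The transduced gene KMT5A was read by 4 probe sets that ran from -0.76 to 0.90 for stable Set8b over vector. All 4 lay above vector with wild-type Set8b, from 0.18 to 1.23, and all 4 lay lower with the stable than with the wild-type form, from -1.08 to -0.06. Where these probes lie on the transduced sequence was not analysed here.

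With stable Set8b, the receptor gene DTL and the rival receptor gene SKP2 read lower than with vector, PCNA and FBXO11 read somewhat lower by their brightest probe sets, and the shared subunits DDB1 and RBX1 differed by little. By the brightest probe set SKP2 was 2.41-fold lower and DTL 1.95-fold lower, just short of 2-fold. At least 2-fold lower was 1 of the 9 genes, SKP2, and 0 were at least 2-fold higher. Over all genes, 4.81% were at least 2-fold lower and 5.23% at least 2-fold higher. A count of 1 in 9 is too small to be read against that background. At 1.5-fold the count of lower genes was 3 (SKP2, DTL and FBXO11), where 14% of all genes passed, and at 3-fold it was 0, where 1.07% passed. Of the 20 probe sets 3 were at least 2-fold lower, both brighter ones of SKP2 and 1 of DTL, against 4.92% of all probe sets past the filter. Of the 9 genes 7 lay below 0, against 50.6% of all genes, with a median of -0.46 against -0.01. In bulk RNA, fewer cells in a given state and less RNA per cell cannot be told apart.

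**Figure D1:**
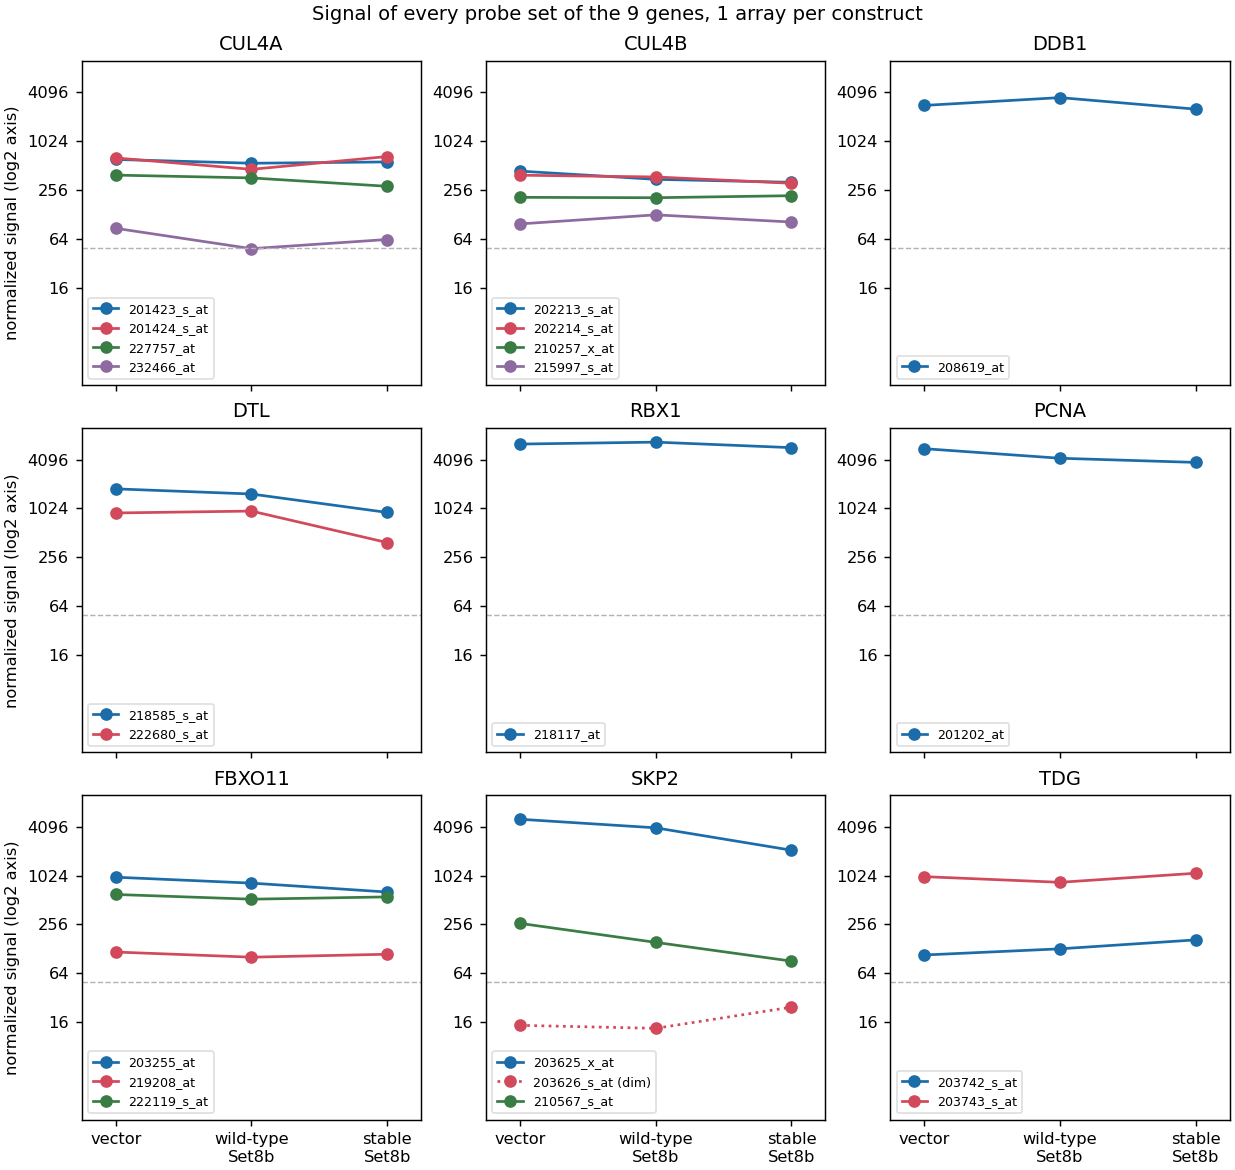
Normalized signal (log2 axis) of each of the 21 probe sets on the vector, wild-type Set8b and stable Set8b arrays, 1 panel per gene. Lines join the 3 arrays of a probe set and carry no time order, a dotted line is the dim SKP2 probe set and the dashed grey line is a signal of 50. Both DTL probe sets and both brighter SKP2 probe sets are lowest on the stable Set8b array.

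DTL encodes Cdt2, the receptor that gives the ligase its choice of substrate. Probe set 218585_s_at gave a signal of 1786 on the vector array, 1543 on the array for wild-type Set8b and 914 on that for stable Set8b. Probe set 222680_s_at gave a signal of 901 on the vector array, 950.2 on the array for wild-type Set8b and 389 on that for stable Set8b. Both were lowest on the stable Set8b array, and they placed vector and wild-type in opposite orders. The log2 differences for stable Set8b over vector were -0.97 and -1.21, so the probe sets fell on either side of the 2-fold line. Of all genes compared, 619 lay lower than DTL in this comparison.

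PCNA encodes the sliding clamp that holds polymerases on DNA and presents PIP degrons to Cdt2. Its single probe set gave a signal of 5595 on the vector array, 4263 on the array for wild-type Set8b and 3787 on that for stable Set8b. The vector array was the highest and the arrays with Set8b were closer to each other. The log2 difference from vector was -0.56 for stable and -0.39 for wild-type Set8b, and 14.7% of all genes lay lower for the stable form. Neither reached 2-fold.

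Of the ligase core, CUL4A and CUL4B, the alternative scaffolds, were each read by 4 probe sets that did not agree in sign for stable Set8b. The brightest CUL4A probe set, 201424_s_at, gave a signal of 638 on the vector array, 462 on the array for wild-type Set8b and 664 on that for stable Set8b, lowest on the wild-type array. The log2 difference for stable Set8b over vector was 0.06, and it was -0.05 with arrays centred on their medians. The other CUL4A probe sets lay between -0.46 and -0.10, and the dimmest, 232466_at, read 86.4, 48.5 and 62.9 in the same array order.

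The brightest CUL4B probe set, 202213_s_at, gave a signal of 439 on the vector array, 347 on the array for wild-type Set8b and 319 on that for stable Set8b, highest on the vector array. Its neighbour 202214_s_at read 391, 372 and 310.5 in the same order of arrays. The remaining CUL4B probe sets, 210257_x_at and 215997_s_at, were at 0.07 and 0.08 for stable Set8b over vector, against -0.46 and -0.33 for the first pair. The direction for CUL4B therefore depended on the probe set.

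DDB1, the adaptor shared by all CUL4 ligases and a part of the UV damage sensor, gave a signal of 2836 on the vector array, 3544 on the array for wild-type Set8b and 2553 on that for stable Set8b. It was highest on the wild-type array, with log2 differences over vector of 0.32 for wild-type and -0.15 for stable Set8b. RBX1, the RING subunit used by several cullin ligases, gave a signal of 6377 on the vector array, 6739 on the array for wild-type Set8b and 5761 on that for stable Set8b. Its log2 differences over vector were 0.08 for wild-type, which turned negative with arrays centred on their medians, and -0.15 for stable Set8b. Over the 10 probe sets of these 4 core genes the differences for stable Set8b over vector ran from -0.46 to 0.08, with 7 below 0, where 51.5% of all probe sets past the filter lay below 0. None of these 10 probe sets reached 2-fold in any of the 3 comparisons. Over all probe sets past the filter, 4.92% were at least 2-fold lower for stable Set8b over vector and 4.69% for stable over wild-type Set8b. A count of 0 in 10 is too small to be read against those shares.

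SKP2 had the lowest value of the 9 genes for stable Set8b over vector, by its brightest probe set. Probe set 203625_x_at gave a signal of 5077 on the vector array, 3979 on the array for wild-type Set8b and 2106 on that for stable Set8b. Probe set 210567_s_at gave a signal of 264 on the vector array, 154 on the array for wild-type Set8b and 90.2 on that for stable Set8b. Both ran from high to low in the order vector, wild-type, stable, and the log2 differences for stable Set8b over vector were -1.27 and -1.55. The third probe set, 203626_s_at, read 14.5, 13.4 and 24.4, under a signal of 50 on every array, and its order has no reading. Of genes with several probe sets past the filter, 1.23% had each of them at least 2-fold lower, as SKP2 did. The ending _x_at marks probes that can also match other transcripts, and the other SKP2 probe sets carry _s_at, shared by several transcripts.

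FBXO11 was read by 3 probe sets. The brightest, 203255_at, gave a signal of 978 on the vector array, 827 on the array for wild-type Set8b and 642 on that for stable Set8b, which put stable Set8b at -0.61 from vector. The others, 222119_s_at and 219208_at, were at -0.10 and -0.09. They read 599, 524 and 559, and 117, 101 and 109.6, in the order vector, wild-type, stable. All 3 were highest on the vector array, but the size of the difference rested on the brightest.

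TDG removes thymine from G-T mismatches and the oxidised forms of methylcytosine, and is itself a CRL4-Cdt2 substrate. Probe set 203743_s_at gave a signal of 994 on the vector array, 846 on the array for wild-type Set8b and 1094 on that for stable Set8b. Probe set 203742_s_at gave a signal of 107 on the vector array, 128 on the array for wild-type Set8b and 165 on that for stable Set8b. Both were highest on the stable Set8b array, by log2 differences over vector of 0.14 and 0.62, while wild-type lay below vector by the first and above it by the second. For stable over wild-type Set8b both probe sets gave 0.37.

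**Figure D2:**
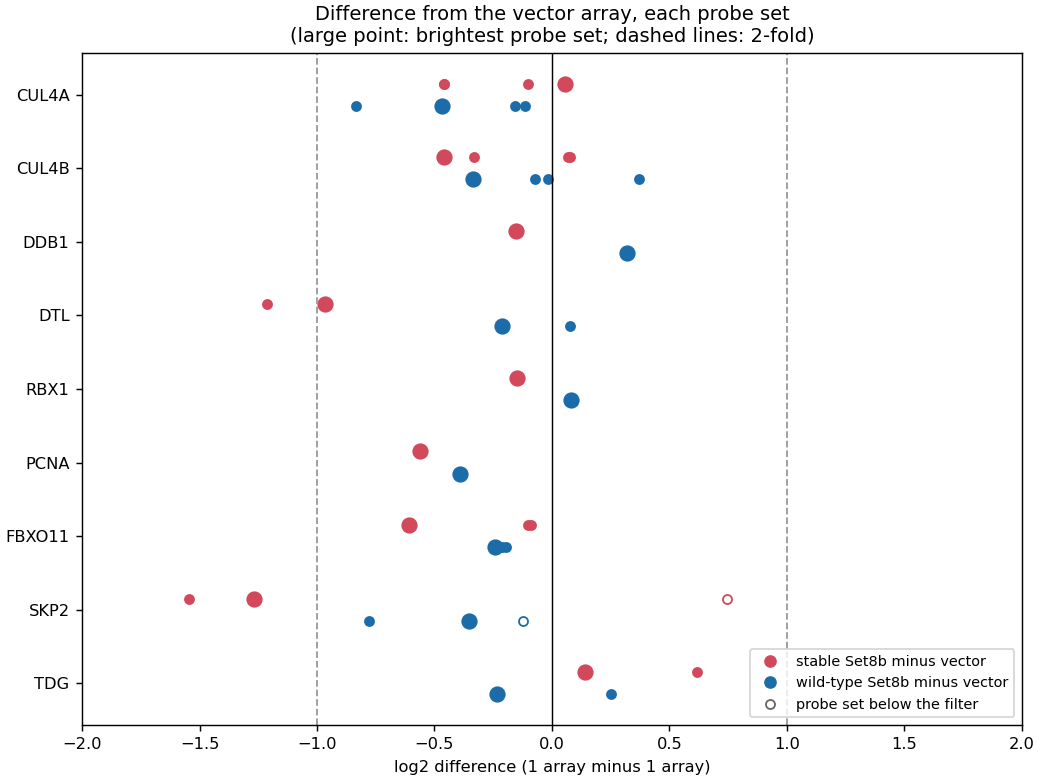
Log2 difference from the vector array for each probe set of the 9 genes, stable Set8b in red and wild-type Set8b in blue. Large points are the brightest probe set of a gene, open points the dim SKP2 probe set and dashed lines 2-fold. For stable Set8b the points of DTL lie at -0.97 and -1.21 and those of SKP2 past the filter at -1.27 and -1.55.

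With wild-type Set8b over vector a smaller share of all genes passed 2-fold than with stable Set8b over vector. Of the 9 genes 0 were at least 2-fold lower and 0 at least 2-fold higher, against 0.653% and 1.02% of all genes. At those shares a count of 0 in 9 says nothing particular about these genes. The median was -0.24, against 0.01 over all genes, and 7 of 9 lay below 0, against 48.6% of all genes. CUL4A was the lowest by its brightest probe set at -0.47, followed by PCNA at -0.39, SKP2 at -0.35 and CUL4B at -0.34. These neighbours in the order lay closer together than the spread between probe sets of 1 gene. With arrays centred on their medians, the median of all genes moved to -0.13, 66.9% of all genes lay below 0, and 8 of the 9 did. For stable Set8b over vector the same centring moved the median of all genes to -0.12 and put 59.2% of them below 0, and 8 of the 9.

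Stable against wild-type Set8b sets the form that escapes this ligase beside the one it can degrade. SKP2 was at -0.92 and -0.77 by its probe sets past the filter, and DTL at -0.76 and -1.29. By the brightest probe set 0 of the 9 genes were at least 2-fold lower and 0 at least 2-fold higher, against 4.8% and 4.45% of all genes. At 1.5-fold 2 were lower, SKP2 and DTL, where 14.4% of all genes were. Of the 9 genes 7 lay below 0, where 51.4% of all genes did, and the median was -0.23. By single probe sets 1 of 20 was at least 2-fold lower, 222680_s_at of DTL at 2.45-fold, against 4.69% of all probe sets past the filter. DDB1 was at -0.47 and FBXO11 at -0.36 by their brightest probe sets, RBX1 at -0.23, PCNA at -0.17 and CUL4B at -0.12. The other FBXO11 probe sets gave 0.09 and 0.12, and 210257_x_at of CUL4B gave 0.08, so these directions depended on the probe set. CUL4A was at 0.53 by its brightest probe set, but 227757_at gave -0.34. Both comparisons of stable Set8b rest on that 1 array.

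**Figure D3:**
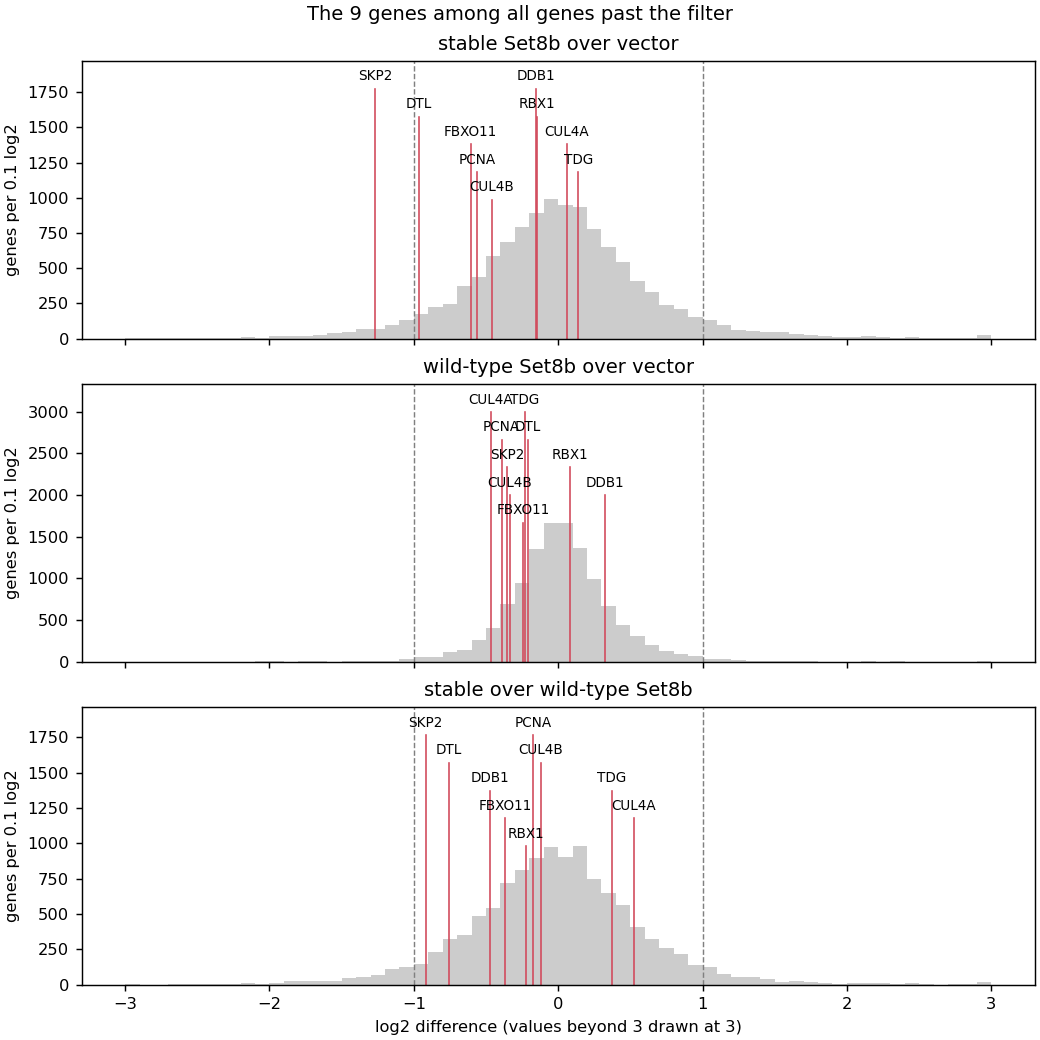
Histograms of the log2 difference of all 11783 genes in each of the 3 comparisons (number of genes per bin of 0.1), with the 9 genes as red lines at the value of their brightest probe set and dashed lines at 2-fold. With stable Set8b over vector, SKP2 at -1.27 and DTL at -0.97 stand furthest to the left, with 295 and 619 genes further left.

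Across the 3 arrays, 5 of the 9 genes (CUL4B, DTL, PCNA, FBXO11 and SKP2) ran from high to low in the order vector, wild-type, stable by their brightest probe sets, against 20.7% of all genes. For the second DTL probe set the order was wild-type, vector, stable. The FBXO11 probe sets 222119_s_at and 219208_at were lowest on the wild-type array. The CUL4B probe sets 210257_x_at and 215997_s_at did not follow the order either. SKP2 kept it by both probe sets past the filter, and PCNA has a single probe set. The 5 genes nearest to DTL in their differences from vector, by Euclidean distance over the 3 arrays, were PELI2, SRFBP1, RNASEH2A, TAF5 and SGF29, at 0.026 or closer. Nearest to PCNA were PIBF1, PDSS2, HPSE, NELL2 and GTF2E1, at 0.019 or closer. Within a distance of 0.1 there were 61 genes around DTL and 94 around PCNA, so 3 arrays separate few patterns.

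The substrates of CRL4-Cdt2 lay on both sides of 0 in mRNA. Of 8 listed, TDG and KMT5A included, 4 lay below 0 and 4 above for stable Set8b over vector, with a median of 0.06, 1 at least 2-fold lower and 1 at least 2-fold higher. Over all genes 50.6% lay below 0, 4.81% were at least 2-fold lower and 5.23% at least 2-fold higher. KMT5A, the transduced gene, was counted below 0 by its brightest probe set at -0.76, although its probe sets reached 0.90. CDKN1A, also a p53 target, gave a signal of 1052 on the vector array, 1891 on the array for wild-type Set8b and 6590 on that for stable Set8b. CDT1, by its brightest probe set, gave a signal of 1195 on the vector array, 760 on the array for wild-type Set8b and 453 on that for stable Set8b, and its other probe set was at -0.98 for stable Set8b over vector. For wild-type Set8b over vector the CDT1 probe sets were at -0.65 and 0.41, so that direction depended on the probe set. POLD4, the small subunit of DNA polymerase delta, was at 0.60, and the repair nuclease ERCC5 at -0.44. SDE2 was at 0.22 and the helicase FBH1 at -0.01, both with differences smaller than the pooled spread between probe sets.

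PCNA is opened and loaded onto DNA by the clamp loader RFC, and its ubiquitin mark is removed by USP1. Of 17 genes of PCNA loading and ubiquitin marking, 16 lay below 0 for stable Set8b over vector, where 50.6% of all genes did. The list median was -0.63, and 4 passed 2-fold downwards, where 4.81% of all genes did. RFC2 was at -1.51 (-1.49 by its other probe set) and RFC4 at -1.57. RFC5 gave a signal of 1043 on the vector array, 952 on the array for wild-type Set8b and 369.8 on that for stable Set8b, though another of its probe sets was at -0.51. USP1 gave a signal of 3993 on the vector array, 3584 on the array for wild-type Set8b and 1664 on that for stable Set8b, and its probe sets lay at -1.26 and -1.96. With wild-type Set8b over vector the list median was -0.11, and 0 of the 17 passed 2-fold downwards, where 0.653% of all genes did.

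In the rest of the cullin system at most 1 gene per list passed 2-fold for stable Set8b over vector. Over all genes 4.81% were at least 2-fold lower and 5.23% at least 2-fold higher. Counts in lists of this size are too small to be read against those shares. Of 21 other CRL4 substrate receptors and their partners, 1 was at least 2-fold higher and 0 lower for stable Set8b over vector, with a median of -0.06. That one was DDB2, the UV damage receptor and a known p53 target, which gave a signal of 743 on the vector array, 853 on the array for wild-type Set8b and 1866 on that for stable Set8b. The 7 other cullin and RING genes (median -0.02), 12 genes of neddylation, which activates cullins (0.07), and 10 COP9 signalosome subunits, which reverse it (-0.09), had 0 members past 2-fold in either direction. The same held for 3 E2 enzymes (0.21) and for 7 partners and counterparts of the rival ligases, CUL1, SKP1 and CKS1B among them (-0.02). CUL1 stands in this list and in that of the cullins, and its value is the median of each. Of the 7 partners and counterparts of the rival ligases, 4 lay below 0 and 3 above, where 50.6% of all genes lay below 0. The lowest were CDC20 at -0.82 and CKS1B at -0.73, both differences larger than the pooled spread between probe sets.

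Among 6 SKP2 substrates 5 lay below 0 for stable Set8b over vector, 2 passed 2-fold downwards and 1 upwards, where 50.6%, 4.81% and 5.23% of all genes did, and the list median was -0.54. CDKN1B, which encodes p27, gave a signal of 2466 on the vector array, 1757 on the array for wild-type Set8b and 743 on that for stable Set8b, and CDT1 and CDKN1A stand in this list too. Of 14 genes that work with TDG in base excision and DNA demethylation, 10 lay below 0, where 50.6% of all genes did, and the list median was -0.46. Past 2-fold downwards were 2, where 4.81% of all genes were. They were TET1, which oxidises methylcytosine to the forms TDG removes, at -1.82, and the DNA glycosylase NEIL3 at -1.55. TDG itself lay above 0 by both its probe sets.

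**Figure D4:**
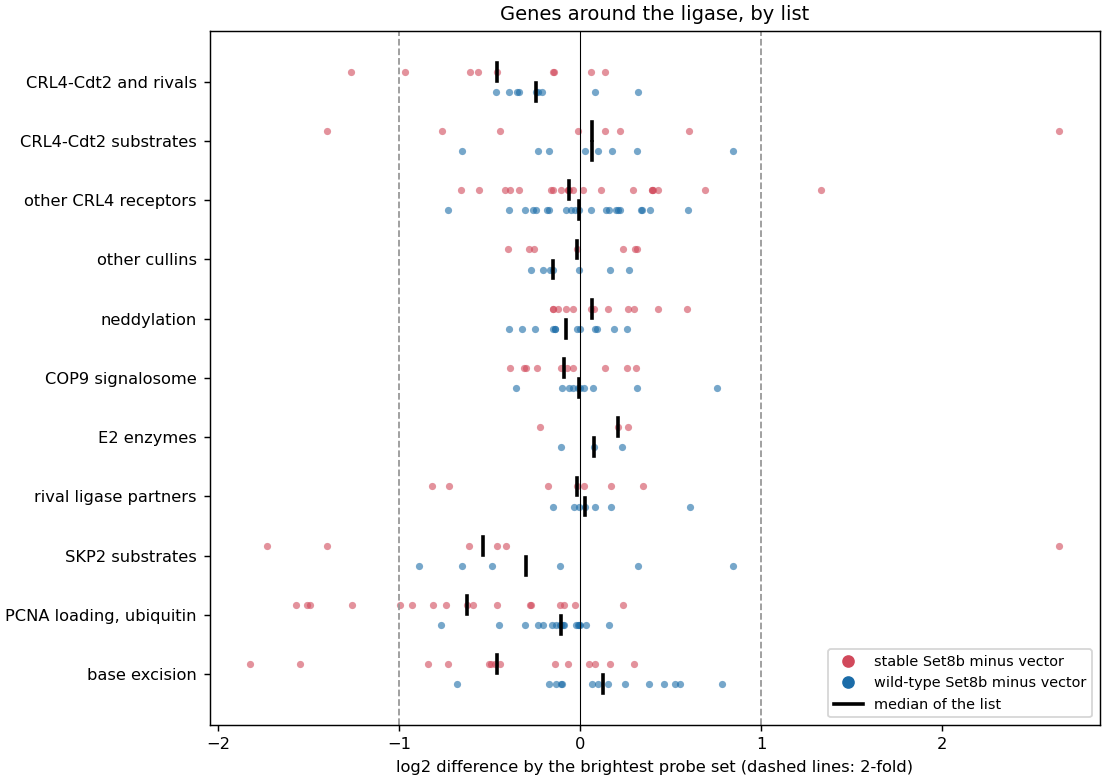
Log2 difference from vector by the brightest probe set for each gene past the filter in 11 lists, stable Set8b in red and wild-type Set8b in blue, with black bars at the list medians and dashed lines at 2-fold. The list of PCNA loading and ubiquitin genes has a median of -0.63 for stable Set8b and -0.11 for wild-type, and the outlying point at 2.65 is CDKN1A, which stands in the lists of CRL4-Cdt2 and SKP2 substrates.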

How the data were processed

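Biotin-labelled total RNA from U2OS cells was hybridised to Affymetrix arrays, 1 for each of 3 constructs, per the labels' protocols. The authors deposited a linear intensity for each of 54675 probe sets per array. The values show scaling to a 2% trimmed mean of 250.0, and the sources used here do not name the software. Because the log2 medians spanned 0.146, more than the limit of 0.1, arrays were quantile normalized without the 62 control probe sets, given a lower limit of 7.7, their 20th percentile, and converted to log2. Detection calls were not used here. Gene names came from probe sets with 1 symbol (41091, of which 41037 matched RefSeq GRCh38.p14 by Entrez identifier). Quantile normalization removes any overall shift between arrays, and background compresses differences of dim probe sets.

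The members and gene lists were chosen with earlier results of these data known. All 9 members, all listed CRL4-Cdt2 substrates, and up to 4 genes per other list at least 2-fold different for stable Set8b over vector were named. Other genes are named as cell markers, as nearest patterns or as examples of a list's content. The steps, run in Python 3.11.15 with numpy 2.4.6 and pandas 2.3.3, were tested on simulated data. Alternatives were values as deposited, median centring, other floors, filters and probe-set rules, and thresholds of 1.5-fold and 3-fold.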

Additional observations from a re-analysis of the deposited data

How the results depend on the processing

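The count of members at least 2-fold lower for stable Set8b over vector, 1 as reported, was 2 with arrays centred on their medians and 2 with the mean over probe sets. In both cases DTL joined SKP2, at -1.08 and -1.09. The count was 0 without probe sets ending in _x_at or _s_at, which leaves 5 of the 9 genes and drops DTL and SKP2, 3 at a threshold of 1.5-fold and 0 at 3-fold. For stable over wild-type Set8b the count of 0 became 1 with the mean over probe sets and 2 at 1.5-fold. The other counts stayed within 1.5 times of those reported. With the mean over probe sets the members' median went from -0.46 to -0.24 for stable Set8b over vector. For wild-type Set8b over vector it went from -0.24 to -0.07, so both sizes depended on the probe-set rule. The medians over the members moved by less than the spread between probe sets under the alternatives run, a wide limit beside medians of this size. Of single genes, CUL4A moved by more than that spread, to -0.46 for stable Set8b over vector and to -0.34 over wild-type, without probe sets ending in _x_at or _s_at. The only member difference of 2-fold or more by the brightest probe set, SKP2 for stable Set8b over vector, kept its sign wherever SKP2 was still read. Other floors and filters left the value of every member unchanged, because its brightest probe set passed them all. No paired analysis was possible because each construct has 1 array. With 1 array each, the spread between cultures is unknown, and single-probe-set genes (DDB1, RBX1 and PCNA) have no second reading.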
